A study of Mus musculus with 12 samples.

Results

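The Dmrt genes encode transcription factors that share the DM domain, and 5 of them, Dmrta2, Dmrta1, Dmrt3, Dmrt1 and Dmrt2, were followed here in differentiating mouse embryonic stem (ES) cells. The members were every probe set whose single gene symbol in the platform annotation is one of these 5 names, which gave 8 of the 45037 non-control probe sets: 1 each for Dmrta2, Dmrta1, Dmrt1 and Dmrt2, and 4 for Dmrt3. The rule uses the annotation and no measured value. The 5 genes, and the gene lists used below, were however chosen with earlier results of these data known. Their counts beside the background are therefore descriptions. RNA was measured on 12 Affymetrix arrays in 6 groups of 2. The rtTA-Dmrt5 line, whose Dmrt5 is under tetracycline-inducible control, was harvested at day 9 with Dox, at day 9 without Dox, at day 7 with Dox and at day 7 without Dox. The parental rtTA line, which carries the reverse tetracycline transactivator alone, was harvested at day 7 with Dox and at day 7 without Dox. All groups were differentiated as a monolayer in the serum-free medium N2B27, and Dox (doxycycline, the inducer) was given from day 5, so that treated cells had 4 days of it at day 9 and 2 days at day 7. No parental arrays at day 9 were analysed here. Whether the inducible line is a single clone was not stated in the sources used here.

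The DM domain is an unusual zinc-binding module, named after the Drosophila gene doublesex and the Caenorhabditis elegans gene mab-3, that binds DNA. Dmrta2, which is also called Dmrt5, acts with Dmrt3 and Dmrta1 in progenitors of the dorsal telencephalon, where mouse mutants of Dmrta2 have a small hippocampus and a reduced cortical hem. Dmrt3 also specifies a class of spinal commissural interneurons. Dmrt1 keeps male identity in the mouse testis, and Dmrt2 patterns the somites, the blocks of mesoderm that form vertebrae, ribs and muscle.

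Promoters are shown for the 3 genes expressed in the forebrain, because these genes had the largest ranges of group means among the 5. The RefSeq windows of GRCm38.p6 span 300 bases around the annotated start, most of them upstream of it, and were found for 4 of the 5 genes, all but Dmrt1. Capitals mark ACATTGT, the core of the sequence bound by DM domains, and the 3 lie on the plus strand at chr4:109977775-109978074, chr4:89687948-89688247 and chr19:25610287-25610586.
Dmrta2: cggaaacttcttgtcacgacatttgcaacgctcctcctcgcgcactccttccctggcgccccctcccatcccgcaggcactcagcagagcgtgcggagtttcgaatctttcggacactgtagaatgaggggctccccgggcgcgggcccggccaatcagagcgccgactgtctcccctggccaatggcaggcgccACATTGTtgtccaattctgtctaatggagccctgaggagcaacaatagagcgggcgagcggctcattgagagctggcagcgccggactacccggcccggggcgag
Dmrta1: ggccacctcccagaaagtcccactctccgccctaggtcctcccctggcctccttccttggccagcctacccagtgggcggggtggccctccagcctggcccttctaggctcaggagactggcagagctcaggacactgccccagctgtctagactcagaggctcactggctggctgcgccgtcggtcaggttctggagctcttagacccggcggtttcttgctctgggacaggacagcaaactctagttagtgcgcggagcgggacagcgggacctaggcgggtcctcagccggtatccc
Dmrt3: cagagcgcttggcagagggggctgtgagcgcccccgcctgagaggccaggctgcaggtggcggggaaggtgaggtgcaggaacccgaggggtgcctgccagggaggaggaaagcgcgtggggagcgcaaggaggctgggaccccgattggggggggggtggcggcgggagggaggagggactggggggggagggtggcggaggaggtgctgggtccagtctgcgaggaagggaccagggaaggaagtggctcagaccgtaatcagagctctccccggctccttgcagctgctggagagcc
ACATTGT was searched on both strands and was found once, in Dmrta2, at bases 196 to 202 of the window, 55 bases before the start. The Sox letters ATTGTT overlap that match at bases 198 to 203 and occur again on the minus strand at bases 236 to 241. The TCF/LEF letters CTTTGAT and the homeodomain letters TAATTA were not found in the 4 windows, and none of the 4 motifs was in those of Dmrta1, Dmrt3 and Dmrt2. Among 32851 promoter windows of the same length, 2.96% held ACATTGT, 10.7% ATTGTT, 3.73% CTTTGAT and 5.29% TAATTA. The windows of Dmrta2, Dmrta1, Dmrt3 and Dmrt2 had a GC content of 63.7%, 65.3%, 70.7% and 62.7%, against a median of 52.7% over all windows. In the order of genes on GRCm38.p6, Dmrt1, Dmrt3 and Dmrt2 are neighbours, with Kank1 before and Smarca2 after them. Dmrta2 lies between Faf1 and Elavl4 and is overlapped by the long noncoding RNA Dmrta2os, which had 0 probe sets here.

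The deposited values are log2 values centred for each probe set on its median over the 12 arrays, so they give differences between arrays and no level. The spacing of the digits still places each median roughly: at 8 or more on the log2 scale for Dmrta2, Dmrt1 and the Dmrt3 probe set 1440707_at, at 4 to 8 for Dmrta1 and the Dmrt3 probe sets 1449763_at and 1420182_x_at, at 2 to 4 for Dmrt2, and under 2 for the Dmrt3 probe set 1460267_at. Of all probe sets, 19.9% had a median of 8 or more and 5.0% one under 2. Column medians ran from -0.011 to 0.006. The mean of 18 hybridisation spike-in probe sets was -0.79 and -0.66 on the rtTA-Dmrt5 day 9 arrays labelled +Dox, against 0.01 and 0.17 on those labelled -Dox, and the difference between Dox arms was -0.81 there, -0.32 in the same line at day 7 and -0.29 in rtTA cells. The Actb 3′ probe set minus the 5′ one, a measure of RNA quality, was 0.23 and 0.20 with Dox at day 9, against 0.01 and -0.05 without. At day 7 it was -0.201 and -0.242 in rtTA cells with Dox, and -0.365 and -0.281 without. In rtTA-Dmrt5 cells at day 7 it was 0.054 and -0.128 with Dox, and 0.065 and 0.048 without. The lines thus did not overlap in it at day 7. The part of these in the results below was not tested.

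Over all 6 groups, 5 of the 8 probe sets differed in limma's moderated F-test: Dmrta2 (adjusted p = 0.000352), Dmrta1 (adjusted p = 9.26e-05), Dmrt1 (adjusted p = 0.000259) and 2 of the 4 for Dmrt3, 1440707_at (adjusted p = 2.03e-05) and 1449763_at (adjusted p = 0.00027). The background share was 34.9% of all probe sets. Dmrt2 (adjusted p = 0.318) and the Dmrt3 probe sets 1420182_x_at (adjusted p = 0.0646, and 0.0279 to 0.0487 in 5 alternatives) and 1460267_at (adjusted p = 0.982) did not pass. Without rtTA +Dox replicate 2, Dmrt2 passed as well (adjusted p = 0.0125).

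**Figure D1:**
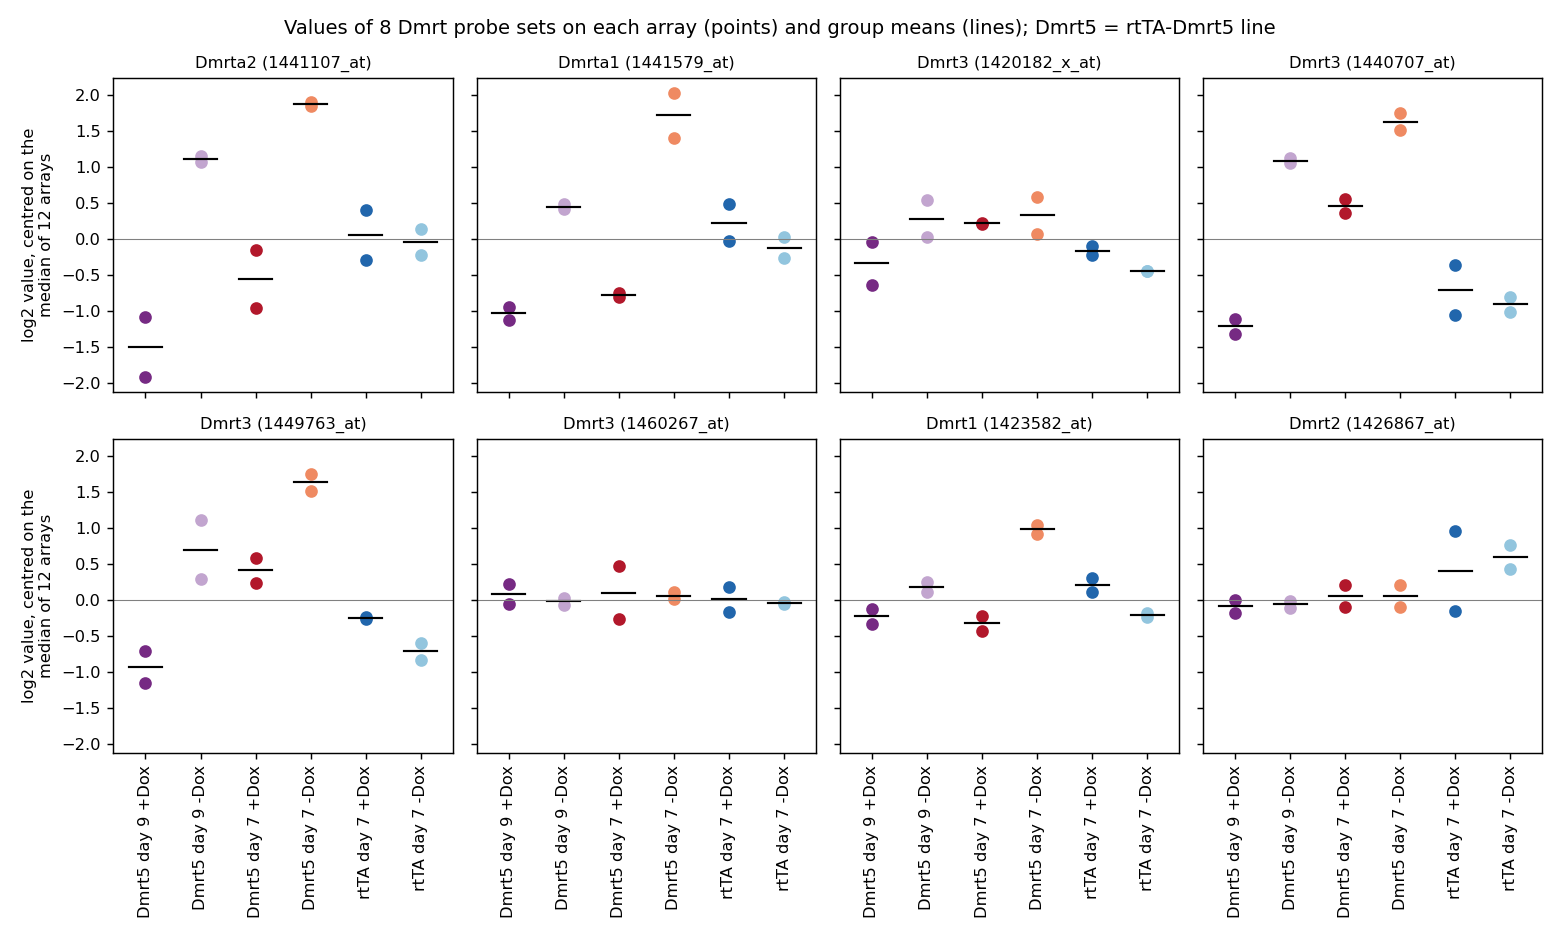
Centred log2 value (vertical axis) of each of the 8 probe sets on each array (points), with group means (lines), for the 6 groups on the horizontal axis. Dmrta2, Dmrta1, Dmrt1 and 3 of the 4 probe sets of Dmrt3 had their highest group mean in rtTA-Dmrt5 cells at day 7 without Dox, whereas Dmrt2 and the Dmrt3 probe set 1460267_at did not.

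Dmrta2 is the gene named as inducible in the rtTA-Dmrt5 line, and its probe set 1441107_at read -1.07 and -1.92 in rtTA-Dmrt5 cells at day 9 labelled +Dox, against 1.07 and 1.16 in those labelled -Dox. At day 7 it read -0.15 and -0.95 in rtTA-Dmrt5 cells labelled +Dox, against 1.91 and 1.85 in those labelled -Dox. In rtTA cells it read 0.41 and -0.28 with Dox, against -0.22 and 0.15 without. The arrays labelled +Dox were thus the low ones in the inducible line, with no overlap on either day, and the Dox arms of the parental line overlapped. No rise of Dmrta2 with Dox was seen with this probe set, and the reason was not tested. The stretch of mRNA covered by this probe set was not stated in the sources used here, and a probe set outside the transgene would not measure it and so checks nothing. In order of group mean, Dmrta2 was 1.88 ± 0.05 (SD, n = 2, as for every group) in rtTA-Dmrt5 day 7 -Dox, 1.12 ± 0.06 in day 9 -Dox, 0.06 ± 0.49 in rtTA +Dox, -0.04 ± 0.26 in rtTA -Dox, -0.55 ± 0.57 in rtTA-Dmrt5 day 7 +Dox and -1.50 ± 0.60 in day 9 +Dox. Neighbours overlapped in the middle of that order, among both rtTA groups and rtTA-Dmrt5 day 7 +Dox. In these bulk samples, fewer cells that express a gene and less RNA per cell cannot be told apart.

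Dmrta1, also called Dmrt4 and the closest relative of Dmrta2 in the mouse, followed nearly the same order. Its probe set 1441579_at read -0.93 and -1.12 in rtTA-Dmrt5 cells at day 9 labelled +Dox, against 0.42 and 0.49 in those labelled -Dox. At day 7 it read -0.74 and -0.80 in rtTA-Dmrt5 cells labelled +Dox, against 1.41 and 2.03 in those labelled -Dox. In rtTA cells it read 0.49 and -0.03 with Dox, against -0.26 and 0.03 without. The 4 rtTA-Dmrt5 arrays labelled +Dox held the 4 lowest values of the 12, and the rtTA groups lay between them and the day 7 -Dox arrays. The group mean was 1.72 ± 0.44 in rtTA-Dmrt5 day 7 -Dox and -1.03 ± 0.13 in day 9 +Dox, the ends of the order. The rtTA +Dox arrays overlapped with both their neighbours in it, rtTA -Dox and rtTA-Dmrt5 day 9 -Dox.

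Dmrt3 had 4 probe sets, 2 of which passed the F-test. Of these the brighter one, 1440707_at, read -1.10 and -1.31 in rtTA-Dmrt5 cells at day 9 labelled +Dox, against 1.12 and 1.05 in those labelled -Dox. At day 7 it read 0.56 and 0.36 in rtTA-Dmrt5 cells labelled +Dox, against 1.51 and 1.75 in those labelled -Dox. In rtTA cells it read -0.36 and -1.05 with Dox, against -1.01 and -0.80 without. Unlike Dmrta2 and Dmrta1, this probe set placed the rtTA-Dmrt5 day 7 arrays labelled +Dox above both rtTA groups, with no overlap. The day 9 arrays labelled +Dox lay below all others, as they did for Dmrta2 and Dmrta1. Probe set 1449763_at had the same order of group means, from 1.64 ± 0.17 in rtTA-Dmrt5 day 7 -Dox to -0.93 ± 0.32 in day 9 +Dox. Its day 9 arrays labelled -Dox spread widely, at 1.11 and 0.29, and overlapped with the day 7 arrays labelled +Dox at 0.59 and 0.24. The other 2 probe sets had narrower ranges: group means ran from -0.44 to 0.33 for 1420182_x_at and from -0.04 to 0.11 for 1460267_at, whose median level was the lowest of the 8.

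Dmrt1, the testis gene, read -0.12 and -0.33 with probe set 1423582_at in rtTA-Dmrt5 cells at day 9 labelled +Dox, against 0.12 and 0.26 in those labelled -Dox. At day 7 it read -0.42 and -0.22 in rtTA-Dmrt5 cells labelled +Dox, against 1.05 and 0.92 in those labelled -Dox. In rtTA cells it read 0.31 and 0.12 with Dox, against -0.18 and -0.24 without. The rtTA-Dmrt5 day 7 -Dox arrays stood above all others, and the remaining 10 arrays lay within -0.42 and 0.31. Its range of group means, 1.30, was the smallest among the probe sets that passed the F-test.

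Dmrt2, the somite gene, had no such order. Its probe set 1426867_at read -0.17 and 0.003 in rtTA-Dmrt5 cells at day 9 labelled +Dox, against -0.11 and -0.003 in those labelled -Dox, and at day 7 -0.09 and 0.22 with Dox, against 0.21 and -0.09 without. In rtTA cells it read 0.97 and -0.14 with Dox, against 0.77 and 0.44 without. The 3 highest arrays were parental, and the fourth parental array lay among those of the rtTA-Dmrt5 line.

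At day 7, Dmrta2, Dmrta1, Dmrt3 and Dmrt1 fell with Dox in rtTA-Dmrt5 cells. For Dmrta2 this is the reading of 1441107_at, which may not measure the transgene, so total Dmrt5 RNA is not known. Dmrta2 fell by 2.43 ± 0.33 (SE) on the log2 scale, a 5.37-fold difference (adjusted p = 0.00318), and Dmrta1 fell by 2.49 ± 0.22, a 5.62-fold difference (adjusted p = 0.000269). Only 0.0666% and 0.0555% of probe sets had a larger absolute change than Dmrta2 and Dmrta1. Dmrt1 fell by 1.30 ± 0.13 (adjusted p = 0.000482). For Dmrt3, 1440707_at fell by 1.17 ± 0.20 (adjusted p = 0.0130) and 1449763_at by 1.22 ± 0.25 (adjusted p = 0.0313), but 1420182_x_at gave -0.11 (95% interval -0.63 to 0.40) and 1460267_at gave 0.04 (-0.43 to 0.52). Dmrt2 gave 0.01 (-0.65 to 0.66). In all, 5 of the 8 probe sets passed, all of them lower, against a background of 3.05% of all probe sets called, with 1.26% higher and 1.79% lower; the median difference was -1.20 over the 8 and 0.01 over all. The Dmrt3 calls were the weakest: without 1 of the 4 arrays compared, the adjusted p of 1440707_at was 0.0517 to 0.122 in 3 of the 4 cases and that of 1449763_at was 0.0765 to 0.227 in all 4.

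At day 9 the same 4 genes were lower with Dox in rtTA-Dmrt5 cells, after 4 days of it. The same limit on the probe set of Dmrta2 holds here. Dmrta2 fell by 2.61 ± 0.33, a 6.12-fold difference (adjusted p = 0.000823), and Dmrta1 fell by 1.48 ± 0.22 (adjusted p = 0.00183). For Dmrt3, 1440707_at fell by 2.30 ± 0.20, a 4.91-fold difference (adjusted p = 0.000138), and 1449763_at by 1.63 ± 0.25 (adjusted p = 0.00236), while 1420182_x_at gave -0.62 (-1.13 to -0.11, adjusted p = 0.0923, and 0.0344 without day 9 +Dox replicate 2) and 1460267_at 0.10 (-0.37 to 0.58). Dmrt1 fell by 0.41 ± 0.13 with an adjusted p of 0.0493, which lay between 0.0523 and 0.202 in 11 alternatives, among them every one that left out an array of the 2 groups. Dmrt2 gave -0.03 (-0.69 to 0.63). Again 5 of 8 probe sets passed and were lower; the background was much larger than at day 7, at 18.3% of all probe sets called, with 10.3% higher and 7.95% lower. The median difference was -1.05 over the 8 and -0.02 over all.

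In the parental rtTA line, which received the same inducer for 2 days, 0 of the 8 probe sets passed in limma, as did 0 of all 45037 (0% called; 2323, or 5.16%, had an unadjusted p under 0.05). The differences were 0.10 ± 0.33 for Dmrta2, 0.35 ± 0.22 for Dmrta1, 0.20 ± 0.20 and 0.46 ± 0.25 for the Dmrt3 probe sets 1440707_at and 1449763_at, and -0.19 ± 0.30 for Dmrt2. The Dmrt3 probe sets 1420182_x_at and 1460267_at gave 0.28 ± 0.23 and 0.05 ± 0.21. Dmrt1 had the smallest unadjusted p of the 8, 0.00767, at a difference of 0.42 ± 0.13 (adjusted p = 0.947). Its Dox arms did not overlap, nor did those of the Dmrt3 probe sets 1449763_at and 1420182_x_at. With so few arrays in each arm, such separation says little. The median over the 8 was 0.24, above 0 where that of the inducible line was below it.

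**Figure D2:**
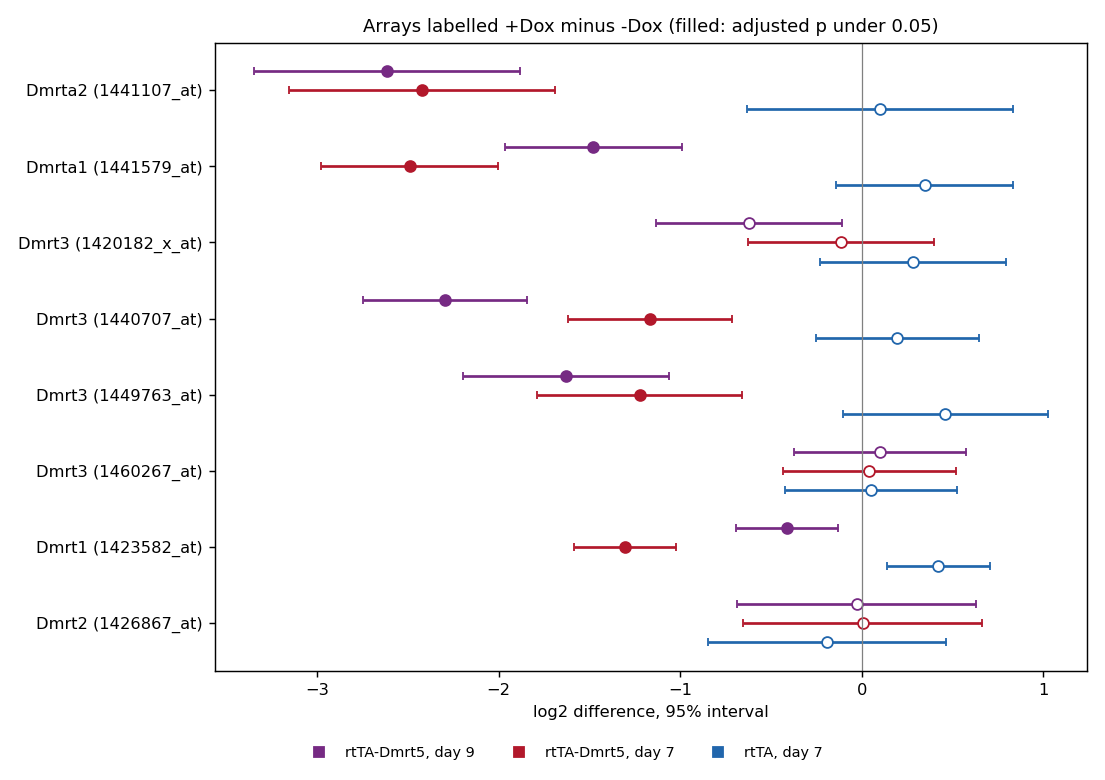
Difference between arrays labelled +Dox and -Dox on the log2 scale (horizontal axis) with its 95% interval, for each of the 8 probe sets (rows) in rtTA-Dmrt5 cells at day 9, rtTA-Dmrt5 cells at day 7 and rtTA cells at day 7; filled points passed an adjusted p of 0.05. Dmrta2 lies at -2.61 and -2.43 in the inducible line and at 0.10 in the parental line.

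The difference in the Dox response between the lines at day 7 was tested directly. It was -2.53 ± 0.47 for Dmrta2 (adjusted p = 0.0360), -2.84 ± 0.31 for Dmrta1 (adjusted p = 0.00295) and -1.73 ± 0.18 for Dmrt1 (adjusted p = 0.00234). For Dmrt3 the difference was -1.37 ± 0.29 with 1440707_at (adjusted p = 0.0639) and -1.68 ± 0.36 with 1449763_at (adjusted p = 0.0669), which did not pass, although both passed with array weights, a second quantile normalization or a filter on dim probe sets. The Dmrt3 probe sets 1420182_x_at (-0.395, adjusted p = 0.690) and 1460267_at (-0.009, adjusted p = 0.996) did not pass. Dmrt3 as the mean of its probe sets passed (-0.863, adjusted p = 0.00439). Thus 3 of 8 probe sets passed, all lower, where 1.04% of all probe sets did, 0.3% higher and 0.739% lower. The call of Dmrta2 was the least firm: its adjusted p was 0.0783 to 0.131 without any 1 of 6 arrays and 0.0522 with only the 8 arrays compared. For Dmrt2 the difference was 0.20 (-0.73 to 1.13).

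Without Dox at day 7, the lines also differed in these genes. In rtTA-Dmrt5 cells Dmrta2 exceeded its value in rtTA cells by 1.92 ± 0.33 (adjusted p = 0.00323), Dmrta1 by 1.84 ± 0.22 (adjusted p = 0.000442) and Dmrt1 by 1.19 ± 0.13 (adjusted p = 0.000234). The Dmrt3 probe set 1440707_at was higher by 2.53 ± 0.20 (adjusted p = 4.16e-05), the largest difference of the 8, followed by 1449763_at with 2.35 ± 0.25 (adjusted p = 0.000256), and 1420182_x_at was higher by 0.77 ± 0.23 (adjusted p = 0.0429, and 0.134 to 0.253 without any 1 of 3 arrays). In all 6 of 8 probe sets were higher, and the background was 18.7% called, 8.72% higher and 9.95% lower. Dmrt2 gave -0.54 (-1.20 to 0.11, adjusted p = 0.249). This comparison shares the rtTA-Dmrt5 day 7 -Dox arrays with the Dox response at day 7, so the signs of the 2 are tied by those arrays.

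With Dox at day 7, the members parted. Relative to rtTA cells, rtTA-Dmrt5 cells had less Dmrta1 (-1.001 ± 0.22, adjusted p = 0.0118) and less Dmrt1 (-0.53 ± 0.13, adjusted p = 0.0181), whereas Dmrt3 was higher by 1.17 ± 0.20 with 1440707_at (adjusted p = 0.00336). Dmrta2 gave -0.61 (-1.34 to 0.13, adjusted p = 0.287) and the Dmrt3 probe set 1449763_at 0.66 (0.10 to 1.23, adjusted p = 0.123). So 1 probe set was higher and 2 lower among 8, where 14.6% of all probe sets were called, 7.83% higher and 6.81% lower. Leaving out rtTA +Dox replicate 1 ended the calls of Dmrta1 (adjusted p = 0.0887) and Dmrt1 (adjusted p = 0.113), and leaving out rtTA-Dmrt5 day 7 +Dox replicate 1 did so as well (adjusted p = 0.0566 for Dmrta1 and 0.143 for Dmrt1). The call of Dmrta1 also ended without rtTA-Dmrt5 day 7 +Dox replicate 2 (adjusted p = 0.071), and that of Dmrt1 with only the arrays compared (adjusted p = 0.0702). Without rtTA +Dox replicate 2, Dmrt2 was lower in rtTA-Dmrt5 cells (-0.90, adjusted p = 0.0228), against -0.35 ± 0.30 with all arrays.

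**Figure D3:**
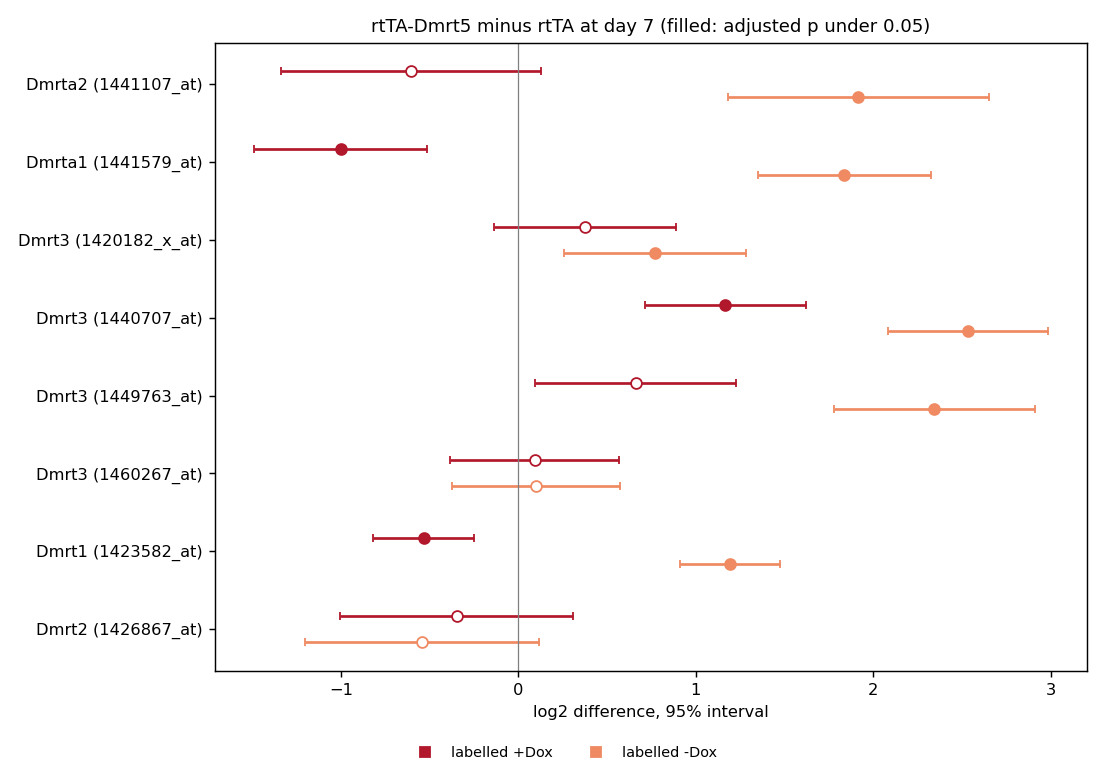
Difference between rtTA-Dmrt5 and rtTA cells at day 7 on the log2 scale (horizontal axis) with its 95% interval, for the 8 probe sets (rows), on arrays labelled +Dox and -Dox; filled points passed an adjusted p of 0.05. Without Dox, 6 of 8 probe sets were higher in rtTA-Dmrt5 cells; with Dox, Dmrta1 (-1.001) and Dmrt1 (-0.53) were lower and the Dmrt3 probe set 1440707_at (1.17) was higher.

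Between day 9 and day 7, the differences that passed in rtTA-Dmrt5 cells were all declines. With Dox, Dmrt3 was lower at day 9, with a log2 difference of -1.67 ± 0.20 for 1440707_at (adjusted p = 0.00128) and -1.34 ± 0.25 for 1449763_at (adjusted p = 0.0103, and 0.0802 or 0.0603 without day 7 replicate 1 or day 9 replicate 2). The other Dmrt3 probe sets, 1420182_x_at (-0.55, adjusted p = 0.18) and 1460267_at (-0.02, adjusted p = 0.970), did not pass. Dmrta2 (-0.95, -1.68 to -0.22, adjusted p = 0.110), Dmrta1 (-0.26, -0.74 to 0.23) and Dmrt1 (0.10, -0.18 to 0.38) did not pass either. That makes 2 of 8 lower, both of Dmrt3, against a background of 9.1% called, 5.18% higher and 3.92% lower. Counted by gene it is 1 of the 5, which is near the 16% of all genes called. Without Dox, Dmrta1 (-1.27 ± 0.22, adjusted p = 0.00708) and Dmrt1 (-0.80 ± 0.13, adjusted p = 0.00489) were lower at day 9, which makes 2 of 8 against 7.65% called, 4.29% higher and 3.37% lower. Dmrta1 then did not pass without day 7 replicate 2 (adjusted p = 0.0520) or day 9 replicate 1 (adjusted p = 0.0525), nor Dmrt1 without day 7 replicate 1 (adjusted p = 0.0520). Dmrta2 (-0.76, -1.49 to -0.03, adjusted p = 0.216) and the Dmrt3 probe sets 1440707_at (-0.54, adjusted p = 0.150) and 1449763_at (-0.94, adjusted p = 0.0530) did not pass. Without Dox, a second quantile normalization added Dmrta2 (-1.58, adjusted p = 0.0171) and 1440707_at (-1.27, adjusted p = 0.00172), and 1449763_at passed there and in 3 further alternatives (adjusted p = 0.00342 to 0.0370). Dmrta2 also passed with only the arrays compared (adjusted p = 0.0297), and Dmrt3 as the mean of its probe sets passed (-0.40, adjusted p = 0.0105).

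The difference between days in the Dox response, which tests that contrast itself, passed for 0 of 8 probe sets in limma, where 0.639% of all probe sets passed, 0.324% higher and 0.315% lower. Of the 8, 3 had an unadjusted p under 0.05, as had 14.6% of all probe sets: Dmrt1 at 0.89 ± 0.18 (adjusted p = 0.0620), the Dmrt3 probe set 1440707_at at -1.13 ± 0.29 (adjusted p = 0.122) and Dmrta1 at 1.01 ± 0.31 (adjusted p = 0.173). Dmrta2 gave -0.19 (-1.23 to 0.85), an interval that holds differences of about 1 in either direction. Dmrt1 passed in 4 alternatives, among them the fit over gene means (adjusted p = 0.0296) and that without rtTA-Dmrt5 day 9 +Dox replicate 2 (adjusted p = 0.0476).

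**Figure D4:**
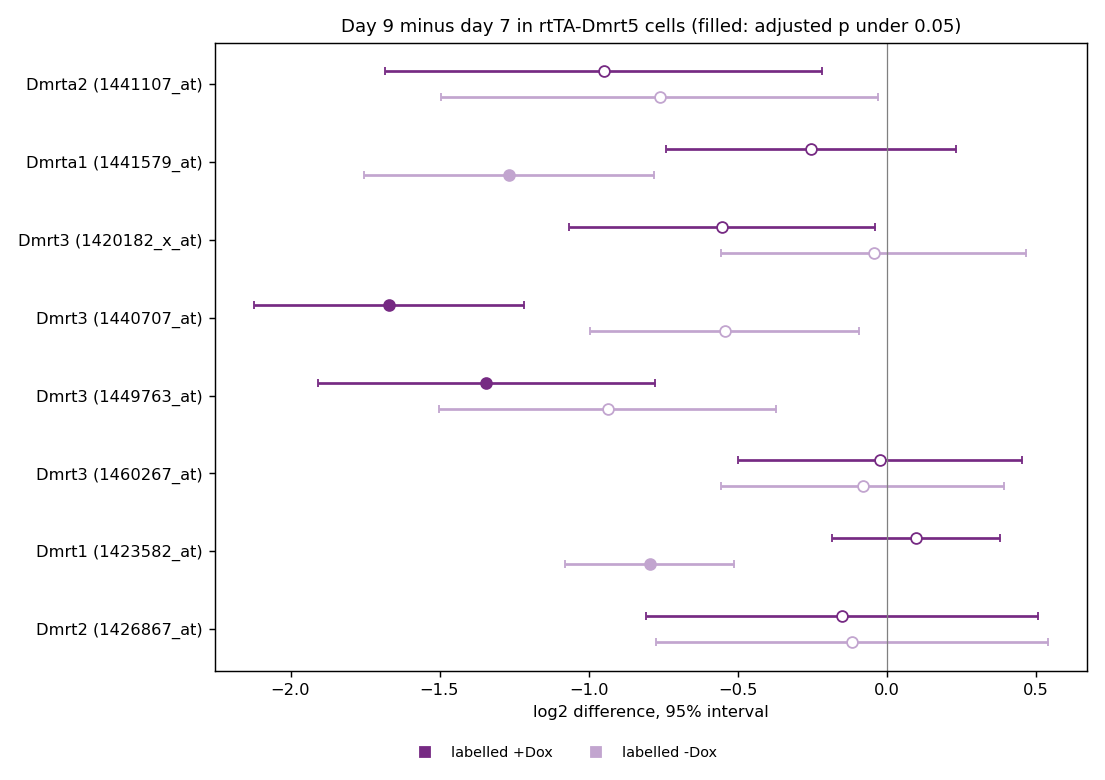
Difference between day 9 and day 7 in rtTA-Dmrt5 cells on the log2 scale (horizontal axis) with its 95% interval, for the 8 probe sets (rows), on arrays labelled +Dox and -Dox; filled points passed an adjusted p of 0.05. Filled points are Dmrt3 with Dox (-1.67 and -1.34) and Dmrta1 and Dmrt1 without Dox (-1.27 and -0.80).

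Across the 12 arrays, Dmrta2 and Dmrta1 had a Pearson r of 0.93, Dmrta1 and Dmrt1 one of 0.92, and Dmrta2 and Dmrt1 one of 0.83. Dmrt3 (1440707_at) followed Dmrta2 at 0.82, Dmrta1 at 0.72 and Dmrt1 at 0.67, and its neighbour on the chromosome, Dmrt2, at -0.26. The Dmrt3 probe sets 1440707_at and 1449763_at had an r of 0.95 with each other, but 0.76 and -0.06 were the values of 1440707_at with 1420182_x_at and 1460267_at. Dmrt2 had an r of 0.02 with Dmrta2. The points share the same 6 groups and arrays, so these are descriptions of 12 arrays. In the plot of arrays, the rtTA-Dmrt5 day 7 ones labelled +Dox had more Dmrt3 (0.56 and 0.36) than every parental array (at most -0.36), with a lower mean of Dmrta2.

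**Figure D5:**
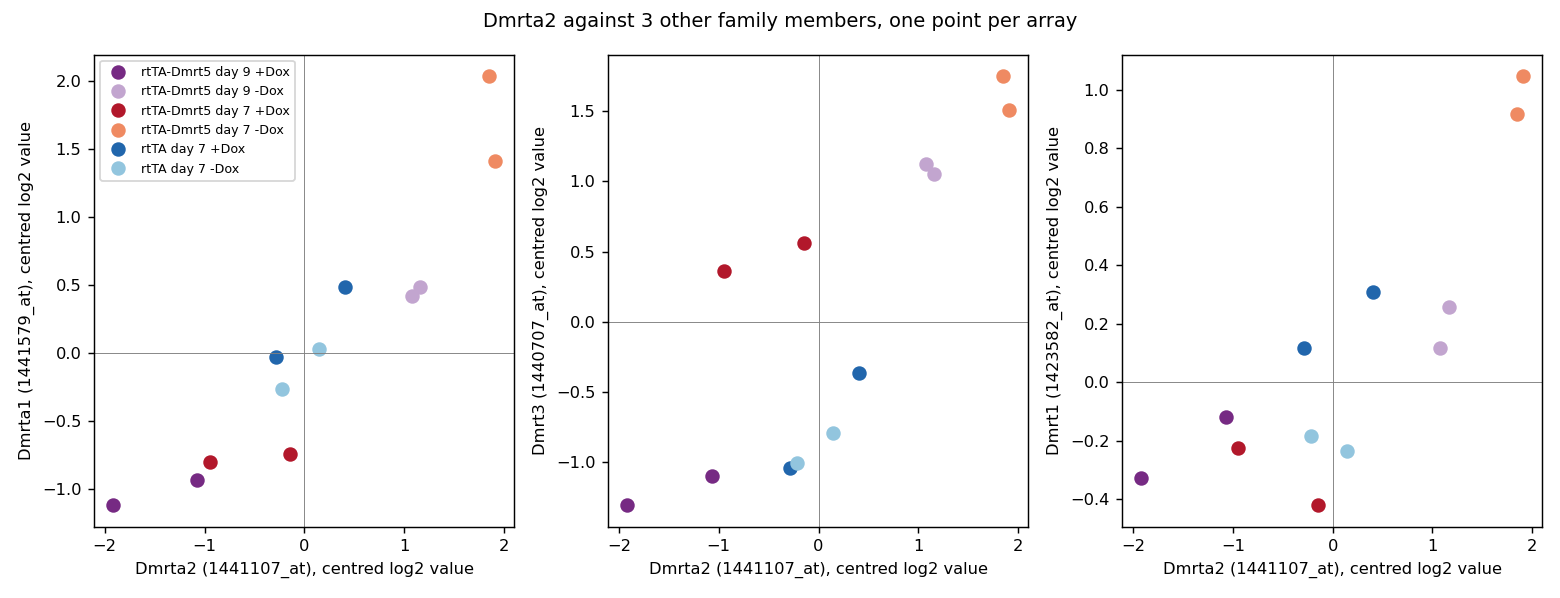
Centred log2 value of Dmrta2 (horizontal axes) against that of Dmrta1, Dmrt3 (1440707_at) and Dmrt1 (vertical axes), 1 point per array, coloured by group. Pearson r over the 12 arrays was 0.93, 0.82 and 0.83, and the rtTA-Dmrt5 day 7 -Dox arrays sit at the top right of each panel.

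Outside the family, the genes whose pattern over the 12 arrays was most like that of Dmrta2 were taken from 5296 probe sets of single genes that passed the F-test with group means at least 1 apart. They were Rspo3, a secreted amplifier of Wnt signalling (r = 0.97), Otx1, a homeobox gene of the forebrain (r = 0.97), Fam181a (r = 0.96) and Glra1, a glycine receptor subunit (r = 0.96), and the most opposite were Aopep (r = -0.95) and Lrrc4 (r = -0.94). For Dmrta1 they were Necab2 (r = 0.96), Wfdc1 (r = 0.95), Fezf1, a zinc finger gene of the forebrain (r = 0.95), and Fam181a (r = 0.95), with Ncald (r = -0.94) and Chst11 (r = -0.92) most opposite. Wfdc1 (r = 0.96), Kcne1l (r = 0.95), Tnfrsf13c (r = 0.94) and Irs4 (r = 0.93) were nearest to Dmrt1, and Ncald (r = -0.89) and Chst11 (r = -0.85) farthest. The 2 Dmrt3 probe sets past the F-test had Tph1, which makes serotonin's precursor (r = 0.99 and 0.95), Tgfbi, a matrix protein (r = 0.98 and 0.96), and P3h3, a collagen hydroxylase (r = 0.97 and 0.96), in common. Slc8a3 (r = 0.97) was added by 1440707_at and Otx2 (r = 0.94) by 1449763_at, and the most opposite were Ubfd1 and Mta2 (r = -0.97 each) for 1440707_at and Zfp42 (r = -0.95) and Tshz3 (r = -0.94) for 1449763_at.

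Of 6 more distant Dmrt genes, 3 were measured by probe sets with a single gene symbol. Dmrtc1c1 and Dmrtc1c2 share a probe set, which was left out. Dmrtb1, which acts in male germ cells of the mouse, fell by 0.77 ± 0.18 with Dox at day 9 (adjusted p = 0.0150) and gave -0.55 ± 0.18 at day 7 (adjusted p = 0.160) in rtTA-Dmrt5 cells. It was higher by 0.71 ± 0.18 at day 9 than at day 7 without Dox (adjusted p = 0.0379), opposite in sign to Dmrta1 and Dmrt1. With Dox at day 7, Dmrtb1 (-0.95, adjusted p = 0.00498) and 1 of 2 probe sets of Dmrtc1a (-0.58, adjusted p = 0.0468) were lower in rtTA-Dmrt5 than in rtTA cells. Dmrtc2 did not pass in any of the 9 comparisons.

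Genes known to act with or downstream of the forebrain members were counted from a list of 25 telencephalon genes, 23 of them measured, a gene counting as called by any of its probe sets. With Dox in rtTA-Dmrt5 cells, 12 were lower and 3 higher at day 9, and 10 were lower and 0 higher at day 7. Counted the same way over all 18193 genes, 11.8% were lower and 18% higher at day 9, and 3.06% were lower and 2.35% higher at day 7. Nr2e1, an orphan nuclear receptor of forebrain progenitors, had a log2 difference of -4.46 at day 9 (adjusted p = 1.33e-05), and of -3.52 at day 7 with an adjusted p of 0.000108. Otx1 gave -3.82 (adjusted p = 5.72e-06) and -2.39 (adjusted p = 0.000102) on these days. Gsx1, a homeobox gene of the ventral telencephalon, gave -2.64 (adjusted p = 0.000746) and -2.38 (adjusted p = 0.00334). Pax6, a homeobox gene of dorsal progenitors, gave -2.15 at day 9 (adjusted p = 5.94e-05), and Nr2f1, a nuclear receptor that patterns the cortex, gave -1.97 at day 7 (adjusted p = 8.19e-05). The list's median over 39 probe sets was -0.44 at day 9 and -0.28 at day 7, against -0.02 and 0.01 over all probe sets. In rtTA cells 0 of the 23 passed, and the difference between lines passed for 8, all lower, with Nr2e1 at -3.96 (adjusted p = 0.00146), where 1.42% of all genes were lower.

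The telencephalon genes also split between the lines, where 14.8% of all genes were higher and 15.3% lower without Dox, and 13% were higher and 10.8% lower with it. Without Dox at day 7, 8 were higher and 3 lower in rtTA-Dmrt5 than in rtTA cells, led by Wnt8b, a Wnt ligand of the cortical hem (3.25, adjusted p = 1.81e-05), and the neurogenic factor Neurog1 (2.70, adjusted p = 6.26e-05), then Otx1 (2.33, adjusted p = 2.34e-05) and Nr2e1 (2.10, adjusted p = 0.000476). With Dox, 6 were higher and 8 lower: Wnt8b (3.48, adjusted p = 8.80e-06) and Neurog2 (2.37, adjusted p = 0.00021) were higher, and Gsx1 (-2.88, adjusted p = 0.000258) and Pax6 (-2.63, adjusted p = 6.40e-06) lower. Wnt8b was thus higher in both arms of the inducible line, as the Dmrt3 probe set 1440707_at was.

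The list of 20 ventral midbrain genes, all measured, moved in both directions. With Dox in rtTA-Dmrt5 cells, 6 were higher and 7 lower at day 9, and 3 were higher and 6 lower at day 7, against shares of all genes of 18% and 11.8% at day 9 and 2.35% and 3.06% at day 7. Wnt1, the Wnt ligand of the midbrain and its boundary with the hindbrain, rose by 2.40 (adjusted p = 0.000305) and 2.83 (adjusted p = 0.000257) on these days, while En2, a homeobox gene of the same region, gave -1.77 (adjusted p = 0.000192) and -1.996 (adjusted p = 0.000205). Pou4f1, a sensory neuron factor, gave -2.71 at day 9 (adjusted p = 1.49e-05). Th, tyrosine hydroxylase of dopamine neurons, gave -1.79 (adjusted p = 0.00159) and Olig2, a basic helix-loop-helix factor, -1.68 (adjusted p = 0.00168) at day 7. The list's medians were -0.31 at day 9 and -0.03 at day 7.

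Genes known to act with Dmrt1 and Dmrt2 were followed in the same way. Over all genes 30.4% were called in either direction at day 9 and 5.41% at day 7, with 18% and 2.35% higher, and the count of gonad genes at day 9 is near that background. Of 20 gonad and germ line genes, 19 were measured; with Dox in rtTA-Dmrt5 cells, 5 were higher and 0 lower at day 9, and 1 was higher and 2 lower at day 7. Nr5a1, a nuclear receptor of the gonad and adrenal gland, rose by 2.04 (adjusted p = 0.000244) and 1.81 (adjusted p = 0.000943) at these days. Of 20 somite genes, 18 were measured; 5 were higher and 3 lower at day 9, and 2 were higher and 2 lower at day 7. Pax3, which marks the dermomyotome and the dorsal neural tube, gave -1.88 (adjusted p = 0.000231) and -2.39 (adjusted p = 0.000132), and Meox1, a homeobox gene of somites, rose by 1.99 at day 9 (adjusted p = 0.000127). The medians were 0.15 and 0.11 for the gonad list and -0.09 and -0.03 for the somite list at day 9 and day 7.

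Markers of cell types moved with the same groups, and their part in the Dmrt values was not tested. Their counts are set against the same background, 18% of all genes higher and 11.8% lower with Dox at day 9, and 2.35% higher and 3.06% lower at day 7. For counts between the lines at day 7 the background was 14.8% higher and 15.3% lower without Dox, and 13% and 10.8% with it. Of 9 neuron markers, 7 were lower and 0 higher with Dox at both days, and the mean of the list was -0.43 and -0.28 at day 9 with Dox, against 0.32 and 0.40 without, and -0.93 and -0.84 at day 7 with Dox, against -0.25 and -0.25 without. Between the lines at day 7, 9 neuron markers were lower in rtTA-Dmrt5 than in rtTA cells with Dox and 5 without, and 0 higher. The mean of that list in rtTA cells was 0.30 and 0.19 with Dox, against 0.31 and 0.14 without. Of 10 pluripotency markers, 7 were higher and 0 lower with Dox at day 9, and 3 were higher and 0 lower at day 7. Between the lines without Dox, 1 was higher and 9 lower, with list means of -0.87 and -0.76 in rtTA-Dmrt5 cells, against 0.41 and 0.53 in rtTA cells. From day 7 to day 9 in rtTA-Dmrt5 cells, 9 pluripotency markers were higher without Dox and 10 with it, and 0 lower. Neuron markers had 5 and 6 higher and 0 lower, and neural progenitor markers 1 and 1 higher and 2 and 5 lower. Over all genes 7.24% were higher and 6.1% lower without Dox, and 9.36% and 6.46% with it. Of 6 epithelial markers, 5 were higher at day 9 and 2 at day 7 with Dox, and none was lower. Of 7 endoderm markers, 5 were higher and 0 lower with Dox at day 9, and 1 was higher and 0 lower at day 7; between the lines 5 were higher and 0 lower with Dox, and 4 were higher and 1 lower without. The mean of the endoderm list was 0.57 and 0.84 at day 9 with Dox, against 0.05 and 0.05 without, 0.37 and 0.44 at day 7 with Dox, against -0.15 and -0.10 without, and -1.18 and -1.04 in rtTA cells with Dox, against -0.88 and -0.66 without. Among them Afp, a yolk sac and fetal liver protein (2.16, adjusted p = 0.00238), and 1 of 3 probe sets of Gata6, an endoderm factor (1.34, adjusted p = 0.001), were higher at day 9. Of 7 neural crest markers, 3 were higher and 2 lower at day 9, and 0 were higher and 1 lower at day 7. Of 5 floor plate markers, 2 were higher and 1 lower at day 9, and 1 was higher and 1 lower at day 7, and of 6 mesoderm markers measured, 2 were higher at day 9 and 0 at day 7. Of 8 neural progenitor markers, 1 was higher and 2 lower at day 9, and 0 were higher and 3 lower at day 7. Of 4 cortex markers, which the telencephalon list holds too, 3 were measured. Lhx2, a homeobox gene of cortical progenitors, gave -0.83 (adjusted p = 0.0259) and -1.65 (adjusted p = 0.00267) at day 9 and day 7, and Emx2 gave -0.81 at day 7 (adjusted p = 0.0172). The probe sets of Emx1 disagreed at day 9, with 0.79 (adjusted p = 0.00323) and -0.58 (adjusted p = 0.0933).

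The genes next to the members had values of their own. At day 7, of Kank1, Smarca2, Faf1, Elavl4, Cdkn2b and Zfp352, only Elavl4, a neuronal RNA-binding protein gene beside Dmrta2, was called with Dox in rtTA-Dmrt5 cells, in 2 of 3 probe sets (-0.64, adjusted p = 0.0313, and -0.71, adjusted p = 0.0488). At day 9, Elavl4 (-0.94, adjusted p = 0.00143, and -0.64, adjusted p = 0.0225) was lower, while Cdkn2b, a cell cycle inhibitor gene beside Dmrta1, was higher by 1.29 (adjusted p = 0.00415) and 1 of 2 probe sets of Kank1, beside Dmrt1, by 0.84 (adjusted p = 0.00188). Smarca2, a chromatin remodelling ATPase gene beside Dmrt2, exceeded the parental line in 2 probe sets, by 2.21 and 1.10 with Dox and by 2.58 and 1.02 without, where Dmrt2 gave -0.35 and -0.54.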

How the data were processed

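Total RNA was DNase-treated and amplified with the NuGEN Ovation method before biotin labelling and hybridisation to Affymetrix arrays, per the labels' protocols. Per the submitters' processing notes the arrays were processed with RMA (version not given in the sources used here). Deposited values were read as log2, a base that no source states, and each of 45101 probe sets is centred on its median over the 12 arrays (within 5e-07), a step that no source used here mentions. Larger is taken as more RNA; scanner files were not analysed here. After 64 control probe sets were left out, 34945 of 45037 probe sets had 1 gene symbol, 932 several and 9160 none.

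limma 3.58.1 (R 4.3.3) was fitted to all 45037 probe sets on the 12 arrays, with 1 mean for each group, with 9 comparisons, eBayes, Benjamini-Hochberg adjustment within each comparison and a threshold of adjusted p 0.05 (6 residual and 3.92 prior degrees of freedom). The fit was tested on simulated data. Samples were grouped by the labels' line, day and Dox treatment. Labels do not say that replicates came from separate cultures, so p-values measure only the spread between these samples, which may be technical, and 2 arrays per group limit precision. Every probe set of the 5 genes is named; genes of the lists are named where called, largest change first, up to 4 a list and comparison, and pattern neighbours are the 4 most alike and 2 most opposite genes by Pearson r.  Members and lists were chosen with earlier results of these data known. Alternatives were gene means, fewer arrays, replicate blocks, array weights, a robust variance model, scaling, a filter on dim probe sets and leaving out each array. Python 3.11.15, pandas 2.3.3 and matplotlib 3.10.9 handled tables and plots.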

Additional observations from a re-analysis of the deposited data

Results flagged for a closer look

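The Dox response at day 7 differed between the lines for 3 members in the interaction test of limma, with rtTA-Dmrt5 lower relative to rtTA cells. The difference on the log2 scale was -2.53 for Dmrta2, -2.84 for Dmrta1 and -1.73 for Dmrt1. For Dmrta2 the rtTA-Dmrt5 arrays labelled +Dox averaged -0.55, against 1.88 for those labelled -Dox. The rtTA arrays averaged 0.06 with Dox, against -0.04 without. The probe set of Dmrta2 may not measure the transgene.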

How the results depend on the processing

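No member's called difference changed sign under any alternative. Of the values of single probe sets under alternatives, 985 stayed on the same side of the threshold, 47 lost a call and 28 gained one. The count of the 5 genes called changed by over 1.5 times in 3 comparisons. For the difference between days in the Dox response it was 0, and 1 with gene means, a second quantile normalization or only probe sets with a level of at least 4. For day 9 minus day 7 without Dox it was 2, and 0 with a replicate block within line and day and 4 after quantile normalization. For rtTA-Dmrt5 minus rtTA with Dox it was 3, and 1 with that block. The Dmrt3 probe set 1440707_at (1.04, adjusted p = 0.0616) and Dmrt1 (-0.61, adjusted p = 0.0809) then did not pass. The block within line and day takes direct comparisons between lines or days, and the F-test, at the fitted level of replicate 1. These are then not the differences of group means given above. Dox responses, and their differences between lines and days, keep their estimates under it. With 1 array left out, the lone sample being assumed to vary like the other groups, the count was 4 to 5 for any difference (4 with all arrays), 3 to 3 for the Dox response at day 9 (4), 3 to 4 at day 7 (4), 0 to 0 in rtTA cells (0), 2 to 4 for the difference between lines (3), 0 to 1 for that between days (0), 1 to 1 for day 9 minus day 7 with Dox (1), 1 to 2 without (2), 1 to 4 between the lines with Dox (3) and 4 to 4 without (4). The r of replicate 1 minus 2 between Dox arms was 0.14 and -0.06 in rtTA-Dmrt5 cells at day 9 and day 7 and 0.03 in rtTA cells. Between groups that differed in line or day it ran from -0.17 to 0.17. No sign of pairing by replicate number was thus seen, but these values cannot settle whether samples were paired. With the replicate block within line and day, the counts were 3 and 4 genes for the Dox response at day 9 and day 7, and the adjusted p of Dmrta2 in the difference between lines was 0.0866. The next ranges are of fits to all 45037 probe sets that left out no array of the groups compared. Calls for the Dox response at day 9 ranged from 3426 (7.61%, only the arrays compared) to 8230 (18.3%, the fit used above). At day 7 they ranged from 775 (1.72%, only the arrays compared) to 2666 (5.92%, array weights), against 1372 (3.05%). Of the 27063 probe sets with a level of at least 4, 8854 (32.7%) were called at day 9 and 1843 (6.81%) at day 7.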
